A study of Mus musculus with 16 samples.

Results

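The genes described here encode the subunits and assembly factors of respiratory complex I. They were taken as all genes whose annotated symbol starts with Nduf, with 1 probe set per gene, that of the highest mean over the 16 arrays. Of 22180 genes with values, 42 were members: 9 were placed in the N module, 5 in the Q module, 9 in the proximal and 9 in the distal membrane arm, and 8 were assembly factors. The remaining 2, Ndufa4 and Ndufa4l2, carry the name for historical reasons, since Ndufa4 is now placed in complex IV and Ndufa4l2 is its paralog.

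RNA from the kidney cortex of mice aged 3 months was measured on 16 Affymetrix arrays, 4 per group. The double mutants carried loxP-flanked (floxed, F/F) alleles of both Vhl and Pbrm1 together with Ksp-Cre. The Vhl mutants carried Vhl F/F with Ksp-Cre, the Pbrm1 mutants carried Pbrm1 F/F with Ksp-Cre, and the wild-type mice are labelled with neither. Ksp-Cre is driven by the promoter of Cdh16, a cadherin of tubule epithelium, so cells of the cortex outside that epithelium keep both genes. In which parts of the tubule the genes were lost is not measured here. All mutant groups are labelled as a mix of C57BL/6, BALB/c and 129, and the wild type as C57BL/6. Each comparison with wild type therefore also compares strains, while the mutant groups share 1 strain label, under which individual mice can differ. The interaction given below includes wild type as well, so strain enters it too. The labels do not say whether each array is a separate animal, and p-values therefore cover the variation among arrays, some of which may be technical. The arrays of a group carry 2 description numbers, each followed by the letter L or R, and the labels explain neither. If a number stands for an animal, each group holds 2 animals, and the SD and n = 4 given here are over arrays. In the double mutants 3 arrays share 1 number. The numbers of the Vhl mutants lie apart from all others, so a batch there cannot be told apart from the genotype. The product of Vhl, part of a ubiquitin ligase, targets hypoxia-inducible factors (HIF) for degradation, and that of Pbrm1 belongs to a SWI/SNF chromatin remodeler. The study asked which early transcriptional events could matter for clear cell renal cell carcinoma.

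Complex I is the entry point of the respiratory chain for electrons from NADH. The N module oxidises NADH, the Q module passes the electrons to ubiquinone, and the membrane arm pumps protons. Part of the membrane arm is encoded by mitochondrial DNA, the other subunits by nuclear DNA, and assembly factors join the modules without staying in the complex. Kidney tubules, the proximal tubule and the thick ascending limb above all, are rich in mitochondria because they reabsorb salt by active transport.

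Promoter sequences of 4 members are given as examples from the changes described below. All have an entry in the RefSeq promoter table (GRCm38.p6). Other members with an entry fell more than Ndufa1 in double mutants against wild type. Each sequence runs 5′ to 3′ over 250 bases before and 50 bases after the gene's start, with matches to the motifs described next in capitals. The promoter window of Ndufc2, a membrane-arm subunit, is chr7:97399753-97400052 on the + strand. That of Ndufa1, a small membrane-arm subunit, is chrX:37191189-37191488 on the - strand. That of Ndufaf1, an assembly factor, is chr2:119662785-119663084 on the - strand, and that of Ndufaf4, another assembly factor, is chr4:24897833-24898132 on the + strand.
Ndufc2: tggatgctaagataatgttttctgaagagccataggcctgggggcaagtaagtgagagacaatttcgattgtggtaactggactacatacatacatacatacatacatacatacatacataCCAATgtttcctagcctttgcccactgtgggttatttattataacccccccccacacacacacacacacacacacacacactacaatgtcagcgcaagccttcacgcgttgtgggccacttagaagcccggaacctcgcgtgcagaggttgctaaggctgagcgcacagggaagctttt
Ndufa1: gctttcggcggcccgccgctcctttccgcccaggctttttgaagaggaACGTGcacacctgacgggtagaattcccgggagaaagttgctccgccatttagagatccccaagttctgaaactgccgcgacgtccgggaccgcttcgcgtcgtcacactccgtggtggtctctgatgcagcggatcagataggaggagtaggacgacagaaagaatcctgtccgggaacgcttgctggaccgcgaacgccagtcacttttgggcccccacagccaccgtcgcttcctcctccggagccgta
Ndufaf1: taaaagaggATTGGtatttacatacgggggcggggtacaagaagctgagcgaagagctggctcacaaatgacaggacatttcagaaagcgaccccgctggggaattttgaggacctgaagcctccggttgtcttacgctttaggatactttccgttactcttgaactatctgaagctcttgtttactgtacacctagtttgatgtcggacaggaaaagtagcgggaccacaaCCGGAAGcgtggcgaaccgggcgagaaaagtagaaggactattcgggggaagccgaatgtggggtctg
Ndufaf4: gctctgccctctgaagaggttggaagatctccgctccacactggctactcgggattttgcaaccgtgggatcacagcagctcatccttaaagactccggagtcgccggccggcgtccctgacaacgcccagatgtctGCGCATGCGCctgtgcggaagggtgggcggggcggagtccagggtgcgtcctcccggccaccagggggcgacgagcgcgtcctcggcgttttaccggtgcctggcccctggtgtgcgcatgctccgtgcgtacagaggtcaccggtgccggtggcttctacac

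The table holds promoters of 37 of the 42 members. Ndufa2, Ndufa4l2, Ndufaf6, Ndufb9 and Ndufs1 are named only. Motifs were searched as exact letters on both strands. The NRF1 motif GCGCATGCG, bound by a regulator of nuclear respiratory genes, was in 4 of 37 member promoters (10.8%), against 1.81% of all 27025 promoters. The YY1 motif AAGATGGCG was in 5 of 37 (13.5%), against 1.49% of all promoters, and the ETS motif CCGGAAG in 6 of 37 (16.2%), against 9.12%. The HRE motif ACGTG, the core of HIF sites, was in 7 of 37 (18.9%, against 19.7% of all promoters). CCAAT was in 11 of 37 (29.7%, against 37.9%) and the ERR motif AAGGTCA in 1 of 37 (2.7%, against 4.66%). Ndufaf4 holds NRF1 matches on both strands that overlap. Ndufaf1 holds an ETS and a CCAAT match, Ndufc2 a CCAAT match and Ndufa1 an HRE match. A match is a description of these letters and no site.

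Expression is given on the log2 scale of robust multi-array averaging (RMA), so a difference of 1 is a 2-fold change. Medians of the arrays ran between 5.18 and 5.27 and lower quartiles between 3.60 and 3.72. The means of all 42 members lay above that quartile. The median SD of a member within a group was 0.09. The tissue label was borne out by proximal tubule markers such as the endocytic receptor Lrp2, at 12.24 in double mutants and 12.31 in wild type (means of log2 values, n = 4). The probe sets of Vhl and Pbrm1 did not separate the genotypes, at -0.12 ± 0.10 SE for Vhl and -0.07 ± 0.07 SE for Pbrm1 (log2 fold change of double mutants over wild type). Exons that a deletion leaves in place may carry these probes, and cells without Cre are measured too, so this checks nothing about the labels. On 3 arrays the median of the adipose markers was raised, at 0.62 above the genes' means in double mutant replicate 3, 0.35 in Vhl mutant replicate 2 and 0.94 in Pbrm1 mutant replicate 3.

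In double mutants 17 of the 42 Nduf genes fell against wild type and 1 rose. Every arm of the complex had members that fell, among them the matrix-arm subunits Ndufa2 and Ndufs8, the membrane-arm subunits Ndufc2, Ndufa11 and Ndufb10 and the assembly factor Ndufaf1. Apart from Ndufc2 the falls were modest, between -0.18 and -0.51 on the log2 scale, and the gene that rose was Ndufa4l2. Called means an adjusted p under 0.05 over all 22180 genes, by limma with Benjamini-Hochberg adjustment. Over all genes 5.56% fell and 6.64% rose, against 40.5% of the Nduf genes that fell. The log2 fold change was negative for 38 of 42 members, with a median of -0.17, against 54.9% of all genes and a median of -0.02. For 18 members (42.9%) every double mutant array lay below every wild-type array, as it did for 8.53% of all genes. The count of 18 called members was 15 without the 3 arrays of raised adipose markers, 13 without wild-type replicate 1 or 3 and 12 without double mutant replicate 4. It was 11 without wild-type replicates 1 and 2 together, 9 without double mutant replicates 1 to 3 together, and 11 with arrays averaged per description number.

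**Figure D1:**
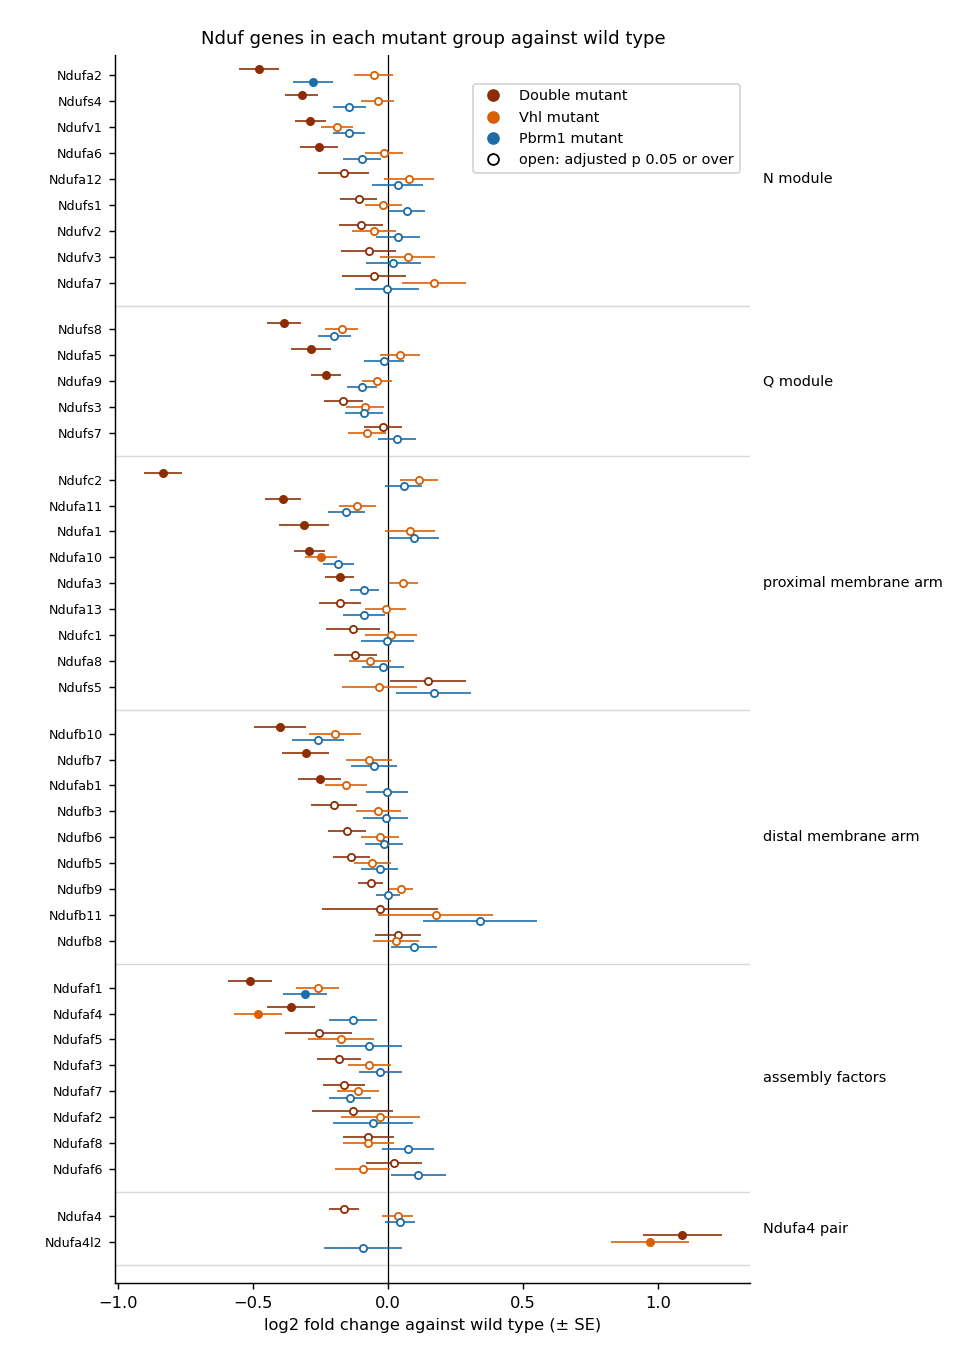
Log2 fold change of each of the 42 Nduf genes against wild type (x axis, points with SE bars) in double, Vhl and Pbrm1 mutants, ordered by arm of complex I; filled points passed an adjusted p of 0.05. Double mutant points lie left of 0 for 38 genes, with Ndufc2 farthest left and Ndufa4l2 farthest right.

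Ndufc2, an accessory subunit of the proximal membrane arm next to the mitochondrially encoded ND2, fell most. It measured 8.84, 8.80, 8.93 and 8.70 in double mutants, 9.68, 9.88, 9.72 and 9.75 in Vhl mutants, 9.76, 9.71, 9.67 and 9.67 in Pbrm1 mutants, against 9.63, 9.62, 9.81 and 9.52 in wild type. The 4 double mutant arrays lay below all 12 others, and the other 3 groups overlapped. In double mutants it was 1.78-fold lower than in wild type (log2 fold change -0.83 ± 0.07 SE, adjusted p = 6e-08). Against Vhl mutants it was -0.95 ± 0.07 SE (adjusted p = 2.6e-08) and against Pbrm1 mutants -0.89 ± 0.07 SE (adjusted p = 2.5e-08), with the same double mutant arrays in all 3 comparisons. Vhl mutants differed from wild type by 0.12 ± 0.07 SE (adjusted p = 0.45). Pbrm1 mutants differed by 0.06 ± 0.07 SE (adjusted p = 0.77). The interaction subtracts both single effects, each against wild type, from that of the double mutants, so strain enters it. It was -1.01 ± 0.10 SE (adjusted p = 5.8e-06). Ndufc2 was the only member of 42 called there, against 0.852% of all genes that passed as negative. The count of 1 was 2 without wild-type replicate 3, double mutant replicate 3, Pbrm1 mutant replicate 2 or Vhl mutant replicate 1. Ndufc2 ranked 49 of 22180 genes by size of negative interaction and 8 by p. Its call held in every alternative of all 4 of these comparisons, with the adjusted p for the interaction between 2.1e-06 and 0.0021. Among genes near Ndufc2, chosen after values were seen, Alg8 had a log2 fold change of 0.09 ± 0.08 SE in double mutants against wild type (adjusted p = 0.60) and Thrsp one of -0.14 ± 0.28 SE (adjusted p = 0.83).

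**Figure D2:**
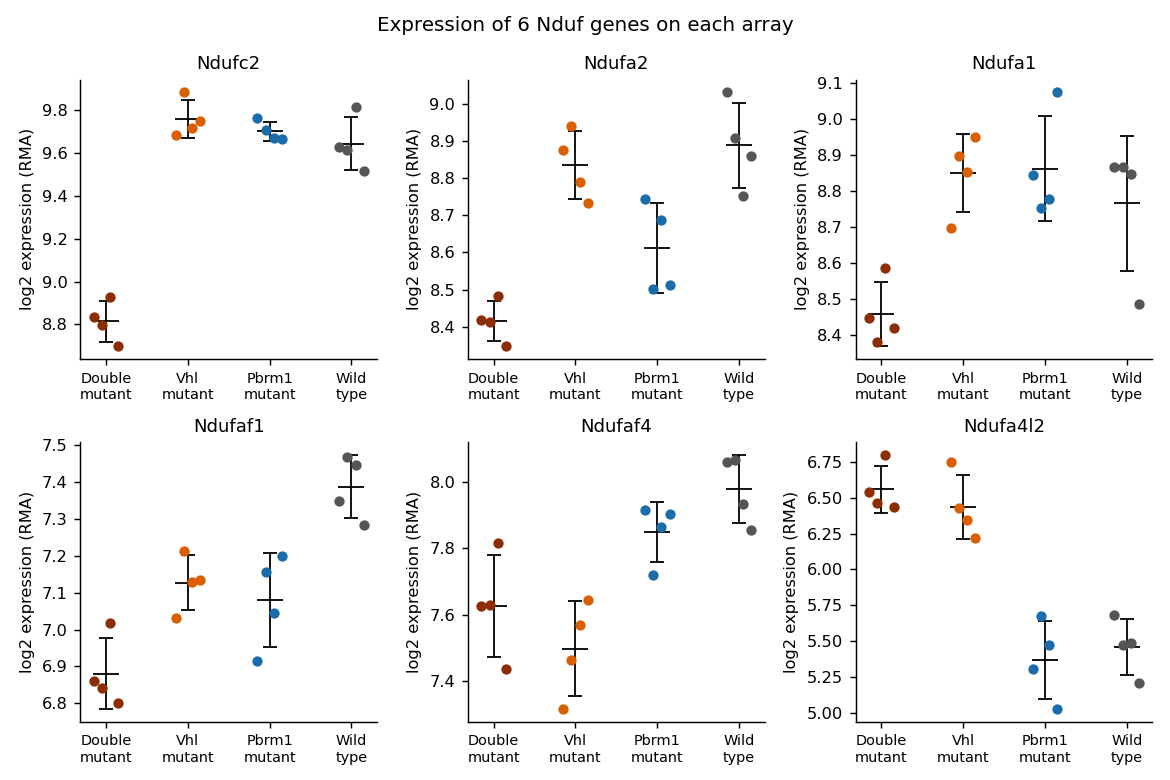
Log2 expression (y axis) of 6 Nduf genes on each of the 16 arrays, with the mean and SD of each genotype (n = 4). For Ndufc2 all double mutant arrays lie below the other 12, while for Ndufa4l2 the double and Vhl mutant arrays lie above the Pbrm1 mutant and wild-type arrays.

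The other members of the proximal membrane arm that fell against wild type were Ndufa11, Ndufa1, Ndufa10 and Ndufa3, which made 5 of 9 with Ndufc2 (median log2 fold change of the 9, -0.18). Ndufa11, a membrane subunit known for contacts within respiratory supercomplexes, measured 9.28, 9.32, 9.44 and 9.26 in double mutants, against 9.78, 9.74, 9.74 and 9.59 in wild type. These 2 groups did not overlap (log2 fold change -0.39 ± 0.07 SE, adjusted p = 0.00049). The mean of Ndufa11 was 9.60 in Vhl mutants and 9.56 in Pbrm1 mutants. Ndufa1, encoded on the X chromosome and needed early in assembly, measured 8.45, 8.38, 8.59 and 8.42 in double mutants, 8.70, 8.90, 8.85 and 8.95 in Vhl mutants, 8.85, 8.75, 8.78 and 9.07 in Pbrm1 mutants, against 8.87, 8.87, 8.85 and 8.49 in wild type. Wild-type replicate 4 lay within the double mutant range, apart from the other 3 wild-type arrays. Double mutants differed from wild type by -0.31 ± 0.09 SE (adjusted p = 0.034). That call ended without any 1 of 6 arrays, wild-type replicates 1, 2 or 3 or double mutant replicates 1, 2 or 4 (adjusted p from 0.0639 to 0.0922). For Ndufa10, on the ND2 side of the arm, the mean was 10.68 ± 0.03 in double mutants, 10.72 ± 0.12 in Vhl mutants, 10.79 ± 0.08 in Pbrm1 mutants, against 10.97 ± 0.03 in wild type (SD, n = 4 each). All 3 mutant groups lay below wild type in every array, and the log2 fold change was -0.29 ± 0.06 SE in double mutants (adjusted p = 0.0018), -0.25 ± 0.06 SE in Vhl mutants (adjusted p = 0.0175) and -0.18 ± 0.06 SE in Pbrm1 mutants (adjusted p = 0.0862). The Vhl mutant call of Ndufa10 ended without Vhl mutant replicate 3 (adjusted p = 0.06). The small subunit Ndufa3 had a log2 fold change of -0.18 ± 0.05 SE in double mutants (adjusted p = 0.033), which missed the threshold on leaving out wild-type replicates 1 or 3 or double mutant replicates 1, 2 or 4 (adjusted p from 0.0643 to 0.0856).

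In the N module, the tip of the matrix arm that takes electrons from NADH, 4 of 9 members fell in double mutants (median log2 fold change of the 9, -0.16). Ndufa2, a small subunit with a thioredoxin-like fold, measured 8.42, 8.41, 8.48 and 8.35 in double mutants, 8.87, 8.94, 8.79 and 8.73 in Vhl mutants, 8.74, 8.50, 8.69 and 8.51 in Pbrm1 mutants, against 9.03, 8.91, 8.75 and 8.86 in wild type. The double mutant arrays lay below all others and the Pbrm1 mutant arrays below all of wild type, while Vhl mutant and wild-type arrays overlapped. Against wild type, Ndufa2 changed by -0.48 ± 0.07 SE on the log2 scale in double mutants (adjusted p = 0.00016), -0.05 ± 0.07 SE in Vhl mutants (adjusted p = 0.79) and -0.28 ± 0.07 SE in Pbrm1 mutants (adjusted p = 0.0378). Ndufs4, an accessory subunit that holds the N module on the complex and whose loss in humans causes Leigh syndrome, measured 8.51, 8.46, 8.47 and 8.48 in double mutants, against 8.74, 8.86, 8.80 and 8.79 in wild type. The double mutant values spanned a narrow range below wild type (log2 fold change -0.32 ± 0.06 SE, adjusted p = 0.0012). Ndufv1, the core subunit that binds flavin mononucleotide and NADH, had a log2 fold change of -0.29 ± 0.06 SE (adjusted p = 0.0022). Ndufa6, which binds the mitochondrial acyl carrier protein, had one of -0.26 ± 0.07 SE (adjusted p = 0.0205). The call of Ndufa6 ended without wild-type replicates 1 or 3 or double mutant replicate 4 (adjusted p from 0.0563 to 0.0969).

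In the Q module, which carries the last iron-sulfur clusters before ubiquinone, 3 of 5 members fell in double mutants (median -0.23). Ndufs8, a core iron-sulfur subunit, measured 9.60, 9.52, 9.68 and 9.55 in double mutants, 9.81, 9.82, 9.73 and 9.83 in Vhl mutants, 9.85, 9.61, 9.84 and 9.79 in Pbrm1 mutants, against 9.93, 10.002, 9.89 and 10.05 in wild type. Every mutant array lay below every wild-type array. Ndufs8 differed from wild type by -0.38 ± 0.06 SE on the log2 scale in double mutants (adjusted p = 0.00024), -0.17 ± 0.06 SE in Vhl mutants (adjusted p = 0.14) and -0.20 ± 0.06 SE in Pbrm1 mutants (adjusted p = 0.0836), and the interaction was -0.01 ± 0.09 SE (adjusted p = 0.96). The accessory subunits Ndufa5 (log2 fold change -0.28 ± 0.07 SE, adjusted p = 0.0139) and Ndufa9, which lies near the ubiquinone site (-0.23 ± 0.06 SE, adjusted p = 0.0082), also fell. Over all arms, 2 of the 6 core catalytic subunits with a probe set of their own fell. The 4 that did not pass were Ndufs1 (log2 fold change -0.11 ± 0.07 SE, adjusted p = 0.39), Ndufv2 (-0.10 ± 0.08 SE, adjusted p = 0.54), Ndufs3 (-0.16 ± 0.07 SE, adjusted p = 0.16) and Ndufs7 (-0.02 ± 0.07 SE, adjusted p = 0.93). Of these, Ndufs3 was lower in every double mutant array than in every wild-type array, and the sign of Ndufs7 turned when single arrays were left out.

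The distal membrane arm had 3 of 9 members that fell in double mutants (median -0.15). Ndufb10, an accessory subunit, averaged 7.09 ± 0.20 in double mutants, against 7.50 ± 0.08 in wild type (SD, n = 4 each; log2 fold change -0.40 ± 0.10 SE, adjusted p = 0.0089). Its mean was 7.30 ± 0.06 in Vhl mutants and 7.24 ± 0.15 in Pbrm1 mutants. Every array of all 3 mutant groups lay below every wild-type array for Ndufb10. Ndufb7, which lies on the intermembrane side, averaged 7.44 ± 0.14 in double mutants, against 7.74 ± 0.13 in wild type, with overlapping arrays (log2 fold change -0.30 ± 0.09 SE, adjusted p = 0.0247). Ndufab1, the mitochondrial acyl carrier protein, averaged 6.97 ± 0.10 in double mutants, against 7.22 ± 0.09 in wild type (log2 fold change -0.25 ± 0.08 SE, adjusted p = 0.041). The Ndufb7 call ended without any 1 of 4 arrays, wild-type replicates 1 or 3 or double mutant replicates 1 or 4 (adjusted p from 0.0598 to 0.1124). The Ndufab1 call ended without any 1 of 7, wild-type replicates 1, 2 or 3, Vhl mutant replicate 2 or double mutant replicates 2, 3 or 4 (adjusted p from 0.0507 to 0.1668). The members of brightest and dimmest probe set in wild type were Ndufb9, a distal subunit at 11.60 ± 0.05 in double mutants and 11.66 ± 0.05 in wild type, and Ndufs5, a proximal one at 4.76 ± 0.19 in double mutants and 4.60 ± 0.13 in wild type. Neither was called in any comparison.

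Of the 8 assembly factors, Ndufaf1 and Ndufaf4 fell in double mutants (median of the 8, -0.17). Ndufaf1, part of the assembly complex that builds the ND2 portion of the membrane arm, measured 6.86, 6.84, 7.02 and 6.80 in double mutants, 7.03, 7.21, 7.13 and 7.14 in Vhl mutants, 6.91, 7.16, 7.05 and 7.20 in Pbrm1 mutants, against 7.35, 7.47, 7.45 and 7.28 in wild type. All mutant arrays lay below all wild-type arrays. Against wild type, Ndufaf1 differed by -0.51 ± 0.08 SE in double mutants (adjusted p = 0.0002), -0.26 ± 0.08 SE in Vhl mutants (adjusted p = 0.0807) and -0.31 ± 0.08 SE in Pbrm1 mutants (adjusted p = 0.035), with an interaction of 0.06 ± 0.12 SE (adjusted p = 0.87). Ndufaf4, which acts early on the Q module, showed another pattern. It measured 7.62, 7.63, 7.81 and 7.44 in double mutants, 7.32, 7.46, 7.57 and 7.64 in Vhl mutants, 7.92, 7.72, 7.86 and 7.90 in Pbrm1 mutants, against 8.06, 8.06, 7.93 and 7.86 in wild type. Both groups with floxed Vhl lay below wild type in every array and overlapped each other. The log2 fold change was -0.36 ± 0.09 SE in double mutants (adjusted p = 0.0095), -0.48 ± 0.09 SE in Vhl mutants (adjusted p = 0.0029) and -0.13 ± 0.09 SE in Pbrm1 mutants (adjusted p = 0.54). In Vhl against Pbrm1 mutants it was -0.35 ± 0.09 SE (adjusted p = 0.0149). The Ndufaf4 call in double mutants ended without double mutant replicate 4 (adjusted p = 0.0537) and that in Vhl against Pbrm1 mutants without Vhl mutant replicate 1 (adjusted p = 0.053).

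Ndufa4l2, a HIF target that has been described to restrain mitochondrial oxygen use under hypoxia, was the only member that rose in any comparison. It measured 6.54, 6.46, 6.80 and 6.43 in double mutants, 6.74, 6.43, 6.34 and 6.22 in Vhl mutants, 5.31, 5.67, 5.47 and 5.03 in Pbrm1 mutants, against 5.68, 5.48, 5.49 and 5.21 in wild type. Every array with floxed Vhl lay above every array without it. Compared with wild type, its fold was 2.13 in double mutants (1.09 ± 0.15 SE on the log2 scale, adjusted p = 2.4e-05). In Vhl mutants it was 1.96 (0.97 ± 0.14 SE, adjusted p = 0.00039). In Pbrm1 mutants the log2 fold change was -0.09 ± 0.14 SE (adjusted p = 0.84), and the interaction was 0.21 ± 0.20 SE (adjusted p = 0.68). Its paralog Ndufa4 measured 10.98, 10.996, 11.07 and 10.97 in double mutants, 11.16, 11.20, 11.29 and 11.16 in Vhl mutants, 11.22, 11.24, 11.16 and 11.24 in Pbrm1 mutants, against 11.19, 11.27, 11.19 and 11.01 in wild type. Double mutant arrays lay below both single mutant groups and overlapped wild type at its replicate 4. The log2 fold change of Ndufa4 in double mutants was -0.20 ± 0.06 SE against Vhl mutants (adjusted p = 0.037), -0.21 ± 0.06 SE against Pbrm1 mutants (adjusted p = 0.0189) and -0.16 ± 0.06 SE against wild type (adjusted p = 0.0651). Its call against Vhl mutants ended without any 1 of 5 arrays, Vhl mutant replicates 2 or 3 or double mutant replicates 1, 2 or 4 (adjusted p from 0.0712 to 0.1085), and that against Pbrm1 mutants without double mutant replicate 4 or Pbrm1 mutant replicate 4 (adjusted p from 0.0514 to 0.0641).

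Few members passed in the single mutants. In Vhl mutants 2 of 42 fell, Ndufaf4 and Ndufa10, and Ndufa4l2 rose. Over all genes 1.79% fell and 2.04% rose, and the members' median log2 fold change was -0.04, against -0.01 over all genes. The count of 3 was 2 without Vhl mutant replicate 3 and 1 without wild-type replicates 1 and 2 together. In Pbrm1 mutants 2 of 42 fell, Ndufaf1 and Ndufa2, against 2.45% of all genes that fell. By limma 0 members rose, also at an unadjusted p under 0.05, against 1.59% of all genes that rose at the adjusted threshold. At an unadjusted p under 0.05, 8 of 42 fell in Pbrm1 mutants, and 5 fell and 1 rose in Vhl mutants. The share of all genes at that level was not taken. The members' median in Pbrm1 mutants was -0.02, against -0.01 over all genes. Both calls in Pbrm1 mutants ended when single arrays were left out: Ndufaf1 without wild-type replicates 1, 2 or 3 or Pbrm1 mutant replicates 1 or 3 (adjusted p from 0.0576 to 0.105), and Ndufa2 without wild-type replicates 1, 2 or 4 or Pbrm1 mutant replicates 2 or 4 (adjusted p from 0.0599 to 0.1256). The count of 2 was 0 without the arrays of raised adipose markers or without wild-type replicate 1 or 2, and 1 without wild-type replicate 3 or 4 or any 1 Pbrm1 mutant array.

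Against the single mutants, which share the double mutants' strain label, the same 4 double mutant arrays had lower values for most members. Individual mice can differ under that label, and a batch of the Vhl mutants cannot be told apart from their genotype. Against Vhl mutants 11 of 42 fell (26.2%), against 2.55% of all genes that fell. The members' median log2 fold change was -0.13, against -0.01 over all genes, and 33.3% of members were lower in every array, against 6.25% of all genes. The 11 that fell were 3 of 9 N module members (Ndufa2, Ndufs4 and Ndufa6), 3 of 5 in the Q module (Ndufa5, Ndufs8 and Ndufa9), 4 of 9 in the proximal arm (Ndufc2, Ndufa1, Ndufa11 and Ndufa3) and Ndufa4. Of the 9 distal subunits and 8 assembly factors 0 passed by limma, with 2 and 1 of them lower at an unadjusted p under 0.05, and whether the arms differ was not tested. After Ndufc2 the largest were Ndufa2 at -0.42 ± 0.07 SE (adjusted p = 0.0011), Ndufa1 at -0.39 ± 0.09 SE (adjusted p = 0.0129) and Ndufa5 at -0.33 ± 0.07 SE (adjusted p = 0.0087). Ndufs4 followed at -0.28 ± 0.06 SE (adjusted p = 0.0066), Ndufa11 at -0.28 ± 0.07 SE (adjusted p = 0.016), Ndufa6 at -0.24 ± 0.07 SE (adjusted p = 0.0458) and Ndufa3 at -0.24 ± 0.05 SE (adjusted p = 0.0092). The core subunit Ndufs8 was at -0.21 ± 0.06 SE (adjusted p = 0.0468) and Ndufa9 at -0.19 ± 0.06 SE (adjusted p = 0.0452). The count of 11 was 7 without double mutant replicate 1 or 2 or Vhl mutant replicate 2, and 6 without double mutant replicate 4 or without the arrays of raised adipose markers. It was 2 without double mutant replicates 1 to 3 together, 6 without Vhl mutant replicates 1 and 2 together and 7 without Vhl mutant replicates 3 and 4 together. Averaging per description number gave 3, no variance trend 5, and centring or averaging double mutant replicates 2 and 3 gave 7. The calls of Ndufa6 and Ndufa9 each ended without any 1 of 11 arrays and that of Ndufs8 without any 1 of 9, from every group (adjusted p from 0.0511 to 0.168 for Ndufa6, 0.0517 to 0.111 for Ndufa9 and 0.052 to 0.1235 for Ndufs8). The call of Ndufa11 ended without double mutant replicate 4 (adjusted p = 0.0591).

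**Figure D3:**
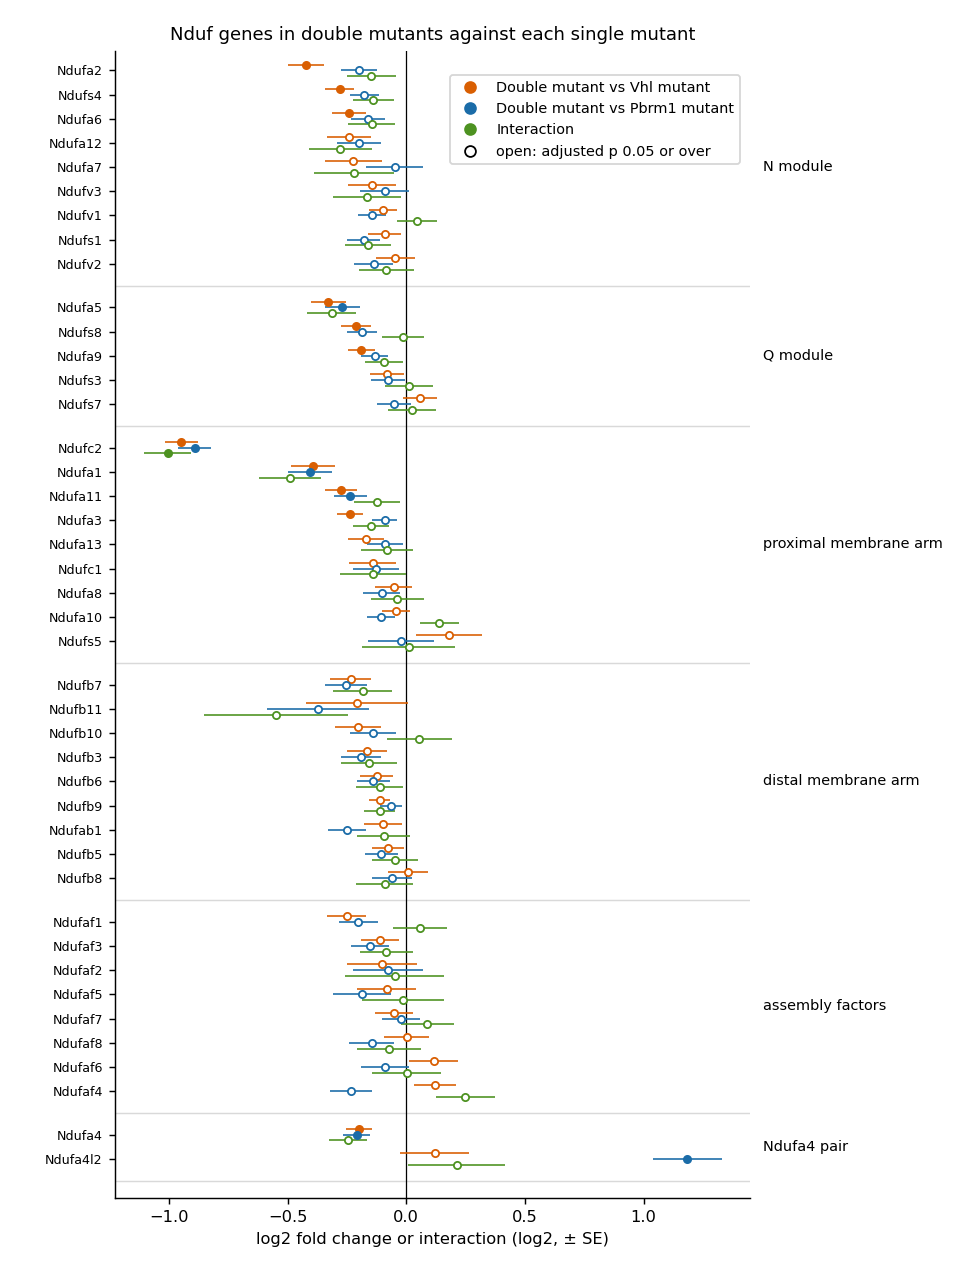
Log2 fold change (x axis, points with SE bars) of each of the 42 Nduf genes in double mutants against Vhl mutants and against Pbrm1 mutants, with the interaction; filled points passed an adjusted p of 0.05. Ndufc2 is the only gene with a filled interaction point, at -1.01.

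Against Pbrm1 mutants 41 of 42 members had a negative log2 fold change in double mutants (median -0.14, against -0.02 over all genes, of which 55.4% were negative). Of these, 5 fell, against 3.37% of all genes, and Ndufa4l2 was 2.27-fold higher (1.18 ± 0.15 SE on the log2 scale, adjusted p = 9.2e-06), against 6.82% of all genes that rose. The falls were those of Ndufc2, Ndufa1 (-0.41 ± 0.09 SE, adjusted p = 0.0063), Ndufa5 (-0.27 ± 0.07 SE, adjusted p = 0.0217), Ndufa11 (-0.24 ± 0.07 SE, adjusted p = 0.0297) and Ndufa4. For 38.1% of members every double mutant array lay below every Pbrm1 mutant array, against 7.75% of all genes. The count of 6 called members was 2 without double mutant replicates 1 to 3 together and 3 without Pbrm1 mutant replicates 3 and 4 together or with arrays averaged per description number. It was 10 with arrays centred on their median and 13 after quantile normalization, and reached 9 without Vhl mutant replicates 1 and 2 together. The call of Ndufa5 ended without double mutant replicate 3 or Pbrm1 mutant replicate 3 (adjusted p from 0.0698 to 0.077). That of Ndufa11 ended without double mutant replicates 1, 2 or 4 or Pbrm1 mutant replicates 1 or 3 (adjusted p from 0.0574 to 0.0977). In Vhl against Pbrm1 mutants Ndufa4l2 was 2.09-fold higher (log2 fold change 1.06 ± 0.14 SE, adjusted p = 4.7e-05) and Ndufaf4 fell, against 4.71% of all genes that rose and 2.75% that fell. After Ndufc2, the interaction was nearest the threshold for Ndufa1 (-0.49 ± 0.13 SE, adjusted p = 0.0512).

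Other genes of the pathway were read from lists by function. Of the 7 subunits encoded by mitochondrial DNA, 0 passed in either direction by limma in double mutants against wild type, with 1 higher and 1 lower at an unadjusted p under 0.05. Their median log2 fold change was 0.10. ND1, a membrane-arm subunit beside the ubiquinone site, measured 13.14 ± 0.05 in double mutants, 13.24 ± 0.06 in Vhl mutants, 13.25 ± 0.04 in Pbrm1 mutants, against 13.04 ± 0.12 in wild type (SD, n = 4 each). It rose in Vhl mutants (log2 fold change 0.20 ± 0.05 SE, adjusted p = 0.0407) and in Pbrm1 mutants (0.21 ± 0.05 SE, adjusted p = 0.0329), where ND4L rose too (0.32 ± 0.08 SE, adjusted p = 0.02). The ND1 arrays of both single mutant groups overlapped those of wild type. At an unadjusted p under 0.05 by limma, 4 of the 7 subunits were higher in Vhl mutants and 5 in Pbrm1 mutants against wild type. At that level 6 of the 7 were negative in the interaction. The share of all genes at that level was not taken. The interaction of ND1 was -0.31 ± 0.08 SE (adjusted p = 0.0356). The mean of ND1 lay above wild type in every mutant group, and the part of strain in this interaction was not tested. Among 12 assembly factors without the Nduf name 2 fell in double mutants, Tmem126b (log2 fold change -0.43 ± 0.08 SE, adjusted p = 0.0012), a partner of Ndufaf1 in the assembly complex, and Foxred1 (-0.38 ± 0.07 SE, adjusted p = 0.00088). Foxred1 fell in Pbrm1 mutants as well (-0.30 ± 0.07 SE, adjusted p = 0.0155). The median of the 12 was -0.07.

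Genes of the neighbouring parts of the respiratory chain also fell in double mutants against wild type, some of them in Pbrm1 mutants too. In complex II 3 of 7 genes fell (median -0.20): the flavoprotein Sdha (log2 fold change -0.29 ± 0.05 SE, adjusted p = 0.00053), the membrane anchor Sdhd (-0.35 ± 0.06 SE, adjusted p = 0.00033) and the iron-sulfur subunit Sdhb (-0.20 ± 0.06 SE, adjusted p = 0.0273). Sdha was also called in Pbrm1 mutants (-0.19 ± 0.05 SE, adjusted p = 0.0393). Of 9 genes of alternative NADH and ubiquinone use 5 fell, Sqor, Gpd2, Prodh, Etfb and Etfdh (from -0.82 ± 0.12 SE for Sqor to -0.22 ± 0.06 SE for Etfdh), and Nnt rose. Sqor, which oxidises sulfide, fell in Pbrm1 mutants as well (-0.95 ± 0.12 SE, adjusted p = 5.1e-05), and double mutants differed from Pbrm1 mutants by 0.13 ± 0.12 SE (adjusted p = 0.59). The other 4 did not pass in Pbrm1 mutants, and none of the 5 in Vhl mutants. Nnt, the proton-driven transhydrogenase that C57BL/6J mice carry in a truncated form, measured 9.36 ± 0.07 in double mutants, 8.68 ± 0.08 in Vhl mutants, 9.10 ± 0.07 in Pbrm1 mutants, against 8.78 ± 0.08 in wild type (log2 fold change in double mutants against wild type 0.58 ± 0.06 SE, adjusted p = 1.7e-06). It rose in Pbrm1 mutants too (0.32 ± 0.06 SE, adjusted p = 0.0046). The part of strain in the Nduf values was not tested.

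Of 18 genes chosen as a measure of mitochondrial mass 4 fell in double mutants and 0 rose, with a median of -0.03. They were the chaperonin Hspd1 (log2 fold change -0.31 ± 0.06 SE, adjusted p = 0.00057), Mfn2, Slc25a4 and Immt. Mfn2, which fuses outer membranes, also fell in Pbrm1 mutants (-0.22 ± 0.06 SE, adjusted p = 0.0331). Citrate synthase, Cs, was at -0.004 ± 0.058 SE (adjusted p = 0.98) and the outer membrane channel Vdac1 at -0.01 ± 0.05 SE (adjusted p = 0.91). Among 13 regulators of mitochondrial genes the nuclear receptor Esrra fell (-0.47 ± 0.09 SE, adjusted p = 0.002) and Myc rose (1.37 ± 0.11 SE, adjusted p = 2e-08), as it did in Vhl mutants (0.76 ± 0.10 SE, adjusted p = 0.00018). The coactivator Ppargc1a was at -0.002 ± 0.082 SE (adjusted p = 0.99). Of 11 HIF targets that act on mitochondria or glycolysis 5 rose and 0 fell in double mutants, among them Egln3 (2.41 ± 0.14 SE, adjusted p = 4.7e-10) and Pdk1, a brake on pyruvate oxidation (1.10 ± 0.11 SE, adjusted p = 1.2e-06). In Vhl mutants 6 of the 11 rose and 0 fell, with a list median of 0.40, against 0.13 in double mutants. Cox4i2 rose in Vhl mutants (0.52 ± 0.13 SE, adjusted p = 0.0255) and did not pass in double mutants (0.12 ± 0.13 SE, adjusted p = 0.66).

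On each array the median deviation of the 40 Nduf genes without Ndufa4 and Ndufa4l2 from their means over 16 arrays lay between -0.14 and -0.04 in double mutants, -0.002 and 0.06 in Vhl mutants, -0.0004 and 0.06 in Pbrm1 mutants, against 0.03 and 0.11 in wild type. The double mutant arrays were below all others. The same measure for the 18 mitochondrial mass genes lay between -0.08 and 0.00 in double mutants and -0.002 and 0.04 in wild type. For the 7 mitochondrially encoded subunits it lay between -0.08 and 0.02 in double mutants and -0.23 and 0.03 in wild type, where the groups overlapped. The lowest arrays there were wild-type replicates 1 and 2 (-0.17 and -0.23), which share a description number.

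**Figure D4:**
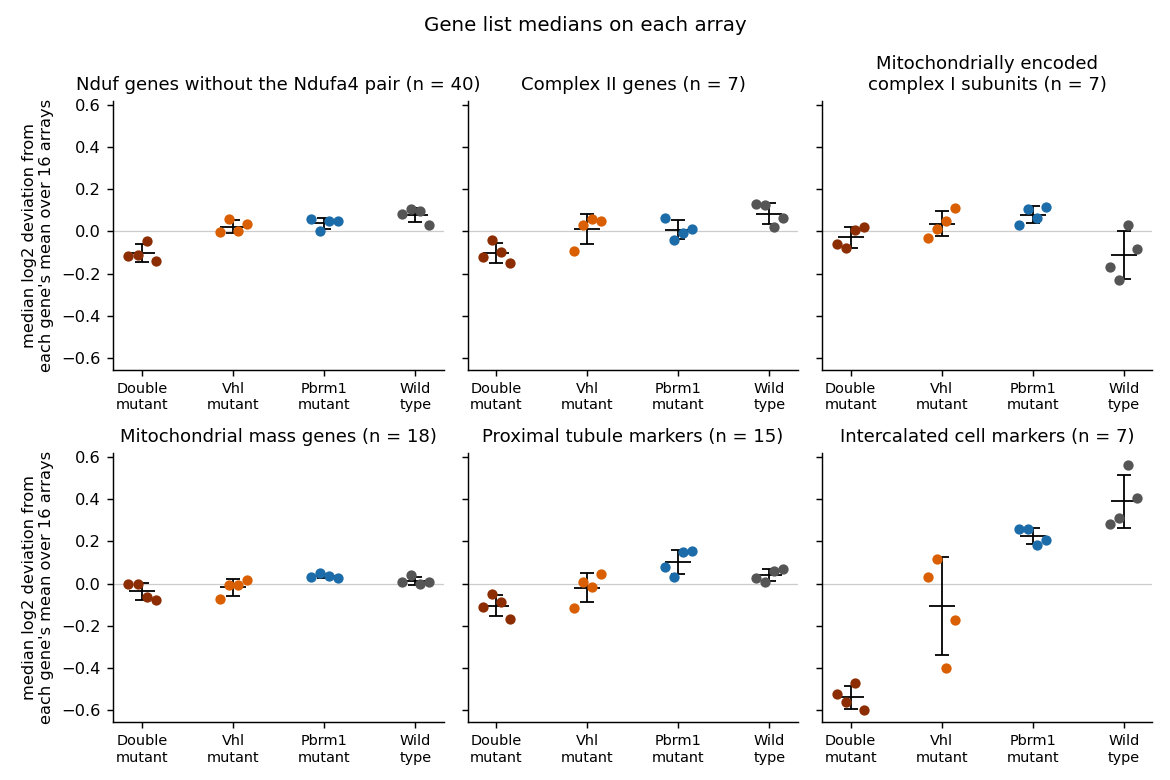
Median log2 deviation of 6 gene lists from each gene's mean over 16 arrays (y axis), 1 point per array with group mean and SD (n = 4). The 40 Nduf genes lie lowest on the 4 double mutant arrays, as do the intercalated cell markers, while mitochondrially encoded subunits overlap between double mutants and wild type.

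Markers of several cell types moved in the same arrays. In bulk tissue, fewer cells of a type and less RNA per cell cannot be told apart. In double mutants against wild type 6 of 15 proximal tubule markers fell and 1 rose, with the list median between -0.17 and -0.05 in double mutants and 0.01 and 0.07 in wild type. Of 7 intercalated cell markers 5 fell and 0 rose, with medians between -0.60 and -0.47 in double mutants and 0.28 and 0.56 in wild type. In the thick ascending limb list 5 of 9 fell and 3 rose, in the distal convoluted tubule list 4 of 7 fell, and in the principal cell list 3 of 6 fell. All 7 tubular injury markers and all 7 fibroblast markers rose, as did 7 of 12 macrophage markers, 4 of 8 endothelial markers and 1 of 7 lymphocyte markers. The injury list median lay between 0.73 and 1.08 in double mutants and -0.78 and -0.42 in wild type, and the fibroblast median between 0.38 and 0.83 in double mutants and -0.40 and -0.24 in wild type. Of 6 adipose and 3 podocyte markers 0 passed by limma, with 1 of each higher at an unadjusted p under 0.05. In Vhl mutants against wild type 10 of 12 macrophage, 5 of 8 endothelial, 5 of 7 fibroblast and 5 of 7 injury markers rose. There 4 of 7 intercalated, 3 of 9 thick ascending limb and 2 of 15 proximal tubule markers fell. In double against Vhl mutants 6 of 7 injury markers rose, and 0 of 7 fibroblast markers passed by limma. The part of these cell types in the Nduf values was not tested.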

How the data were processed

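Total RNA of kidney cortex was labelled with biotin and hybridised to Affymetrix arrays, per the labels' protocols. Before deposit the authors turned the scans into log2 expression with RMA, using Expression Console 1.4 (per the submitters' processing notes). Of 41345 probe sets, 23521 list 1 gene symbol and were used; 1814 with several symbols and 16010 not listed were left out. The probe set of highest mean was kept for each of 22180 genes. The array's build is not given in the sources used here, so no probe set coordinates are given; promoter windows are those of the RefSeq table (GRCm38.p6).

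limma 3.58.1 (R 4.3.3) was run on all 16 arrays, with the group as a fixed effect, the description number (2 per group, possibly an animal) as a random block (correlation 0.0838) and a prior variance following mean expression. Double mutant replicates 2 and 3 share a description. The number of arrays limits the precision. Calls needed an adjusted p under 0.05 (Benjamini-Hochberg, over all genes). The script was tested on simulated data. Named were all called members of a comparison, or the 12 largest changes where more were called, Ndufa4, Ndufa4l2, core subunits and the highest and lowest member in wild type; Ndufab1, the neighbours of Ndufc2 and single list genes were chosen after values were seen. The members and lists were chosen with earlier results of these data known. Alternatives were other blocks, scalings, filters and fits, and left-out arrays.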

Additional observations from a re-analysis of the deposited data

Results flagged for a closer look

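Among 23 named genes in 4 groups of 4 arrays, 92 sets of values were checked for 1 array standing far from the other 3, and 3 did. Chance gives about 1 in 20. Ndufa1 measured 8.49 in wild-type replicate 4, against 8.85 in the nearest wild-type array, and this value is the one within the double mutant range. Ndufs4 measured 8.79 in Pbrm1 mutant replicate 3, against 8.62 in the nearest. Ndufs8 measured 9.73 in Vhl mutant replicate 3, against 9.81 in the nearest.

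For Ndufc2 the difference of double mutants from wild type departed from the sum of both single mutants' differences. The interaction was -1.01 on the log2 scale (limma adjusted p = 5.8e-06), and strain enters it through wild type. All 4 double mutant arrays were below all 12 others.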

How the results depend on the processing

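Of 43 called pairs of gene and comparison, 13 kept their call under every alternative, 30 lost it under at least 1 and 0 turned sign. The 13 were Ndufc2 in double mutants against each other group and in the interaction, Ndufa4l2 in its 4 comparisons, Ndufa2 in double mutants against wild type and Vhl mutants, and Ndufa11, Ndufaf1 and Ndufs8 in double mutants against wild type. With arrays averaged per description number the calls numbered 11 (main value 18) in double mutants, 1 (3) in Vhl mutants and 0 (2) in Pbrm1 mutants against wild type, 3 (11) and 3 (6) in double mutants against Vhl and Pbrm1 mutants, and 1 (2) in Vhl against Pbrm1 mutants. Leaving out arrays gave 9 to 19, 1 to 4, 0 to 3, 2 to 11, 2 to 9 and 1 to 3 calls in the same order, and 1 to 2 in the interaction (main value 1). Centring gave 0 calls in Pbrm1 mutants against wild type, 7 in double against Vhl mutants and 10 in double against Pbrm1 mutants. Quantile normalization gave 13 in double against Pbrm1 mutants, 4 in Vhl against Pbrm1 mutants and 3 in the interaction. Without the variance trend there were 0 calls in Pbrm1 mutants against wild type and 5 in double against Vhl mutants, and with only the groups compared 0 in Pbrm1 mutants. Averaging double mutant replicates 2 and 3 gave 7 in double against Vhl mutants, and no block gave 2 in the interaction. Without the arrays of raised adipose markers, an alternative chosen after seeing the data, the calls were 0 in Pbrm1 mutants against wild type, 6 in double against Vhl mutants and 1 in Vhl against Pbrm1 mutants. The cause was not tested. The members' median log2 fold change moved on centring to -0.080 in Vhl mutants against wild type, -0.18 in double against Pbrm1 mutants and -0.061 in Vhl against Pbrm1 mutants, and on quantile normalization to -0.18 in double against Vhl mutants and -0.15 in the interaction. Over left-out arrays it lay between -0.21 and -0.16, -0.07 and -0.02, -0.04 and -0.01, -0.16 and -0.12, -0.17 and -0.13, and -0.02 and 0.01 in the order above, and between -0.13 and -0.0725 in the interaction. Ndufs7 in double mutants against wild type turned sign without wild-type replicate 1 (0.0031), wild-type replicate 2 (0.0032), double mutant replicate 4 (0.0183) or wild-type replicates 1 and 2 (0.0497), and ranged between -0.109 and 0.0497 over left-out arrays (-0.02 with all).

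Arrays with the same replicate number did not deviate together (correlations between -0.07 and 0.06), so the number does not pair them. With the replicate number as a fixed replicate block, 16 members were called in double mutants against wild type and 9 against Vhl mutants, and the counts of 3, 2, 6, 2 and 1 in the other comparisons did not move. In all 4 calls of 43 were lost under it, and the members' medians were -0.17, -0.04, -0.02, -0.14, -0.14, -0.003 and -0.09. The number of arrays and their description numbers limit what single calls show.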

Other observations

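Probe sets that list several symbols were kept out of all comparisons. Of these, 6 list an Nduf gene. The difference of means in double mutants minus wild type was -0.29 for the set of Ndufb2 and Adck2 and -0.27 for 1 of the 2 sets of Ndufs6 and Ndufs6b, with every double mutant array below every wild-type array for both. It was -0.14 for the other Ndufs6 set, -0.28 for Ndufs5 and its pseudogene, -0.15 for the Ndufb4 copies and 0.49 for the set of Ndufs1 and Ino80dos. In that last set every double mutant array lay above every wild-type array (lowest 5.30, against a highest of 5.09). Sets of several symbols cannot be assigned to 1 gene.

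Of the 42 members, 3 have more than 1 probe set with their symbol alone. The second set of Ndufa11 averaged 5.35 in double mutants and 5.93 in wild type, that of Ndufa12 5.62 in double mutants and 5.96 in wild type, and that of Ndufa8 6.37 in double mutants and 6.66 in wild type, each on a probe set of lower signal than the one used.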
